A study of Mus musculus with 23 samples.

Results

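The genes described here are Il7r and the cytokine receptor chains that work with or beside it in T cells: Il7r, Il2ra, Il2rb, Il2rg, Il4ra, Il21r, Il6ra and Il6st. They were taken by gene symbol from the deposited table, 8 of its 21900 protein-coding genes, and all 8 were found and passed the filter on low counts. Polyadenylated RNA was sequenced from 23 libraries of ovalbumin-specific mouse T cells: OT-I cells, which are CD8 T cells that carry a transgenic receptor for an ovalbumin peptide, and OT-II cells, their CD4 counterpart. Both were transferred into wild-type C57BL/6 hosts, which kept their own lymphocytes, and the hosts were treated 1 day later. Sorting from pooled spleens and lymph nodes followed at day 5 after transfer.

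Each cell type was studied after 4 treatments: 1 ug of A8B1-OVA, a higher dose of free ovalbumin (OVA), an amount of free OVA equal in moles to the A8B1-OVA, and saline. The series title names erythrocytes as the target, and the nature of A8B1 is not otherwise given in the sources used here. Titles carry the numbers 5 for the higher dose and 0.5 for the molar-equivalent dose, without a unit. There were 3 libraries per group, except 2 for OT-II cells after the higher dose, and each library pooled the RNA of 3 mice. P-values therefore measure the spread between these pools. In bulk RNA, fewer cells of a type and less RNA per cell cannot be told apart.

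Il2rg encodes the common gamma chain, which pairs with private chains to make receptors for IL-2, IL-4, IL-7, IL-9, IL-15 and IL-21 and passes their signal through the kinase JAK3. Il7r encodes the alpha chain of the IL-7 receptor, high on resting naive and memory T cells, which rely on IL-7 for survival, and lower on recently activated T cells. Il2ra is the alpha chain that gives the IL-2 receptor its high affinity, Il2rb the beta chain that IL-2 and IL-15 share, and Il4ra and Il21r the ligand-specific chains for IL-4 and IL-21. Il6ra and Il6st belong to another receptor system: Il6ra binds IL-6, and Il6st (gp130) is the signalling chain of the whole IL-6 family and does not use the gamma chain.

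Promoter sequences are shown for Il7r and Il6ra, which fell with A8B1-OVA in both cell types, and for Il6st, which rose in OT-II cells. Of the 8 genes 7 matched a promoter entry, all but Il2rb. Each run holds the 250 bases before the RefSeq start of the gene in GRCm38.p6, written 5′ to 3′ on the gene's own strand. Capitals mark matches of a motif of a factor family tied to cytokine receptor genes, searched on both strands. The motifs were the ETS core GGAAGT (reverse ACTTCC, found in 20% of the 27025 promoters searched), the RUNX core TGTGGT (reverse ACCACA, 14.2%), the FOXO core TGTTTAC (reverse GTAAACA, 3.09%), the STAT palindrome TTCNNNGAA (7.18%) and the NF-kB pattern of GGG and CC with 5 bases between them (reverse GG and CCC, 45.4%). The Il7r window (chr15:9529877-9530126, minus strand) held a STAT match 142 bases and an ETS match 49 bases before the RefSeq start. The whole Il7r window lies inside the gene as annotated in GENCODE M21, whose 5′ end is at 9530176. The RefSeq and GENCODE starts of Il7r thus differ, and by GENCODE this run is not upstream of the gene. The Il6ra window (chr3:89913197-89913446, minus strand) held ETS matches at 173 and 12 bases and overlapping NF-kB matches at 224 and 223 bases before the start. The Il6st window (chr13:112463820-112464069, plus strand) held no match of these 5 motifs. A match describes letters and does not show binding.
Il7r: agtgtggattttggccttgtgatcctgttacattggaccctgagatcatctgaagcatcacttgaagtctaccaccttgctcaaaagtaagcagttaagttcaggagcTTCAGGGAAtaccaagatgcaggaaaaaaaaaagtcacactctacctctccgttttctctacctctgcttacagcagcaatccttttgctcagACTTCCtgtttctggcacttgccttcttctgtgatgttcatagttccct
Il6ra: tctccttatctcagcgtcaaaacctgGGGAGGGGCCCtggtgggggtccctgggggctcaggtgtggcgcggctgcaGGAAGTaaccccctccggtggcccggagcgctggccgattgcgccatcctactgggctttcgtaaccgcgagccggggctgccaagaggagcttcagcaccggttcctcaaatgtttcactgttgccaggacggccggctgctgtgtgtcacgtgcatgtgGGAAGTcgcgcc
Il6st: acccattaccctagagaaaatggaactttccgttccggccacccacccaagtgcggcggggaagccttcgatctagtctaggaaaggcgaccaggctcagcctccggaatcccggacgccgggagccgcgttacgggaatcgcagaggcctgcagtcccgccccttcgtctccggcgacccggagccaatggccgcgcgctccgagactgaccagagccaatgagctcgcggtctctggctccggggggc

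Libraries held 26584040 to 73503642 counts. Levels are given as CPM, the count of a gene scaled to library size with TMM factors. Lineage markers fitted the sort labels. Cd8a and Cd8b1 summed to 2378 to 4133 CPM in OT-I libraries and 24.8 to 59.8 CPM in OT-II libraries, and Cd4 and Zbtb7b summed to 621 to 782 CPM in OT-II libraries. OT-I higher-dose replicate 1 stood apart with 198 CPM of Cd4 and Zbtb7b, against 2.02 to 18.5 CPM in the other OT-I libraries. Myeloid markers were highest in OT-I molar-equivalent replicate 2 (1097 CPM), OT-II saline replicate 1 (699.6 CPM) and OT-I saline replicate 1 (485 CPM), and B cell markers in OT-I molar-equivalent replicate 2 (515 CPM) and OT-II molar-equivalent replicate 3 (187 CPM). These 5 libraries are called the raised-marker libraries, and results were also computed without them.

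In GRCm38 with GENCODE M21, Il7r spans chromosome 15 from 9505788 to 9530176 on the minus strand, and Il2rb lies on the same chromosome from 78479256 to 78495271, also on the minus strand. Il4ra (125552120 to 125579474) and Il21r (125603429 to 125633570) are neighbours on the plus strand of chromosome 7. Il2rg lies on chromosome X (101264378 to 101268255, minus strand), Il2ra on chromosome 2 (11642807 to 11693193, plus strand), Il6ra on chromosome 3 (89864059 to 89913196, minus strand) and Il6st on chromosome 13 (112464070 to 112510086, plus strand). Counts cover the coding transcripts of each gene, so exons and UTRs are not separated. Il2rg is less certain than the others, because 28.7% of its 31-base words also occur in the overlapping coding gene Gm20489. Il4ra and Il6ra each overlap an antisense gene, and the strand setting is not given in the sources used here.

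After A8B1-OVA, 4 of the 8 receptor genes changed against saline. Il7r and Il6ra fell and Il2rb rose in both cell types, and Il6st rose in OT-II cells. In OT-I cells 3 of 8 passed the edgeR quasi-likelihood test at an adjusted p under 0.05 against saline, beside 11.5% of all genes tested. In OT-II cells 4 of 8 passed, beside 7.28% of all genes. The median log2 fold change of the 8 genes was -0.12 in OT-I cells and -0.11 in OT-II cells, against -0.02 and -0.01 over all genes tested, so the set did not move as a block in 1 direction.

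**Figure D1:**
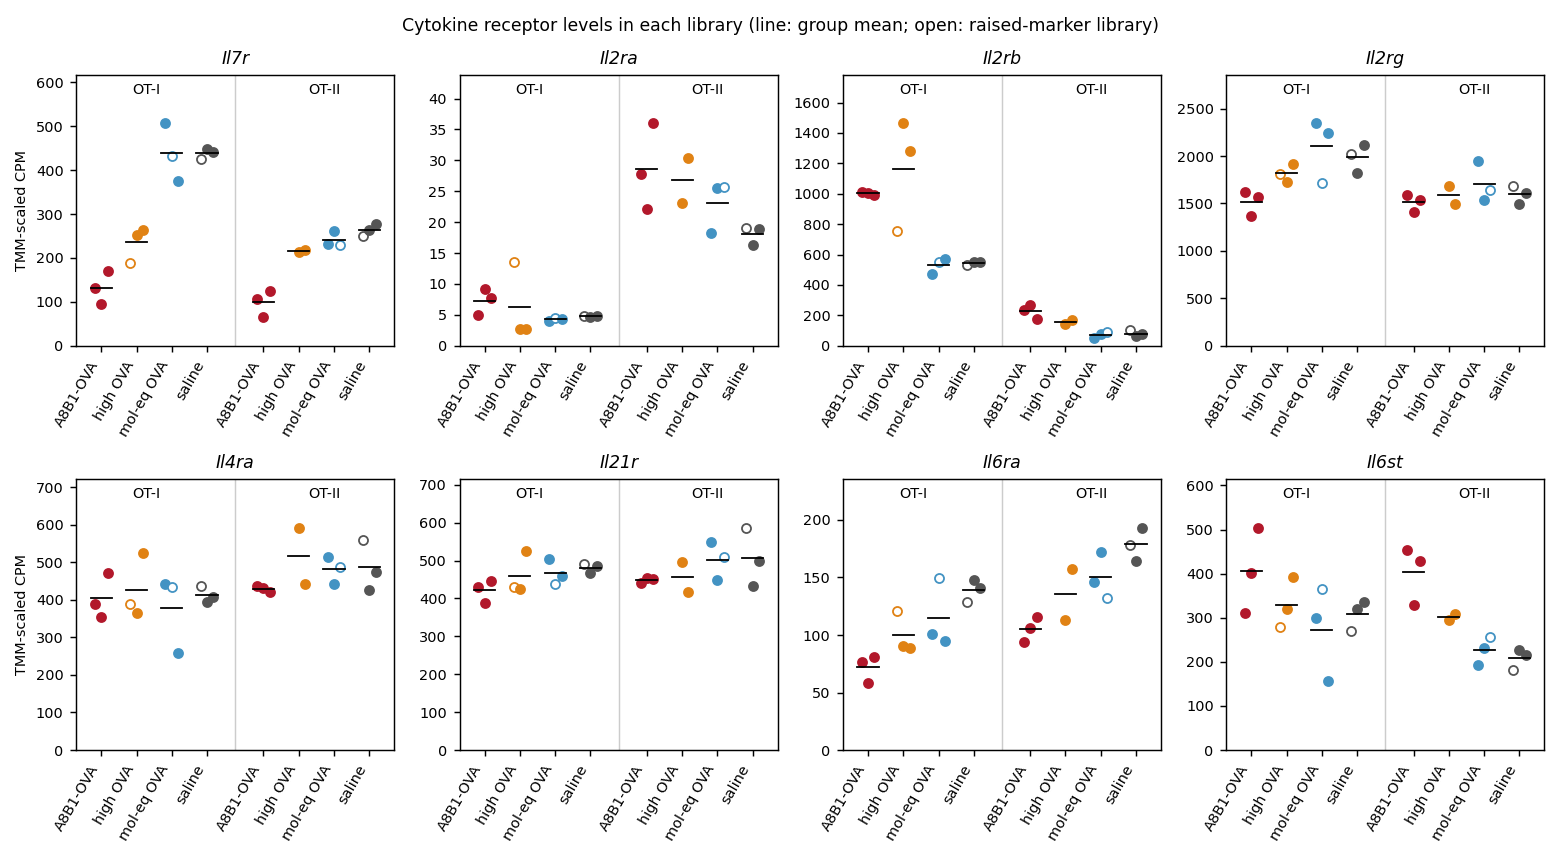
Level of each of the 8 receptor genes in every library, in TMM-scaled CPM on the vertical axis, with the 4 treatments from A8B1-OVA at the left to saline at the right for OT-I and OT-II cells; points are libraries, lines are group means and open circles are the 5 raised-marker libraries. Il7r is lowest after A8B1-OVA in both cell types (133 and 99.1 CPM on average), Il2rb is highest in OT-I cells throughout, and Il2ra is higher in OT-II cells.

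Il7r gave the steepest fall of the 8. In OT-I cells it stood at 131, 95.9 and 171 CPM after A8B1-OVA, at 189.5, 252 and 265 CPM after higher-dose OVA, at 507, 433 and 376 CPM after molar-equivalent OVA and at 425, 449 and 442 CPM after saline. The A8B1-OVA libraries lay below all higher-dose libraries, and the higher-dose libraries below all of the remaining ones, while molar-equivalent OVA and saline overlapped. Against saline, Il7r fell 3.33-fold with A8B1-OVA (log2 fold change -1.74, SE 0.20, adjusted p = 0.000204), with group means of 133 ± 37.5 and 439 ± 12.3 CPM (SD, n = 3 each). The same fall was measured against molar-equivalent OVA (-1.73, SE 0.20, adjusted p = 0.000256). Both calls held with each library left out in turn, over which the log2 fold change against saline ranged from -1.96 to -1.53.

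In OT-II cells Il7r stood at 107, 65.3 and 125 CPM after A8B1-OVA, at 214 and 218 CPM after higher-dose OVA, at 233, 261 and 230.4 CPM after molar-equivalent OVA and at 251, 264 and 278 CPM after saline. Again the A8B1-OVA libraries were the 3 lowest, with no overlap with any other treatment. Il7r fell 2.64-fold with A8B1-OVA against saline (log2 fold change -1.40, SE 0.18, adjusted p = 0.00100) and also fell against molar-equivalent OVA (-1.27, SE 0.18, adjusted p = 0.00174). Leaving out 1 library at a time kept both calls, with a range of -1.61 to -1.17 against saline.

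Il7r was also the only one of the 8 genes called between A8B1-OVA and higher-dose OVA, 1 of 8 in each cell type beside 2.41% of all genes in OT-I cells and 1.34% in OT-II cells. The log2 fold change was -0.86 in OT-I cells (SE 0.20, adjusted p = 0.0426) and -1.11 in OT-II cells (SE 0.20, adjusted p = 0.0223). These calls were fragile, although no library overlapped. In OT-I cells leaving out A8B1-OVA replicate 1 gave -0.83 (adjusted p = 0.121), leaving out A8B1-OVA replicate 2 gave -0.65 (0.220), and leaving out higher-dose replicate 1, 2 or 3 gave -0.99 (0.0536), -0.77 (0.127) and -0.77 (0.138), so the call went in 5 of 6 cases. In OT-II cells it went when A8B1-OVA replicate 1 (-1.16, 0.0732), higher-dose replicate 2 (-1.12, 0.207) or higher-dose replicate 3 (-1.09, 0.144) was left out. Without the raised-marker libraries the OT-I value was -0.99 with an adjusted p of 0.0989, and fits of only the 2 groups compared gave adjusted p of 0.0837 in OT-I cells and 0.0715 in OT-II cells.

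Higher-dose OVA itself lowered Il7r in OT-I cells against saline (log2 fold change -0.88, SE 0.20, adjusted p = 0.0346), and the value against molar-equivalent OVA was similar but did not pass (-0.87, SE 0.20, adjusted p = 0.0542). The call against saline was lost with any 1 of the 6 libraries left out, with values from -0.96 to -0.75 and adjusted p from 0.0742 to 0.131, and without the raised-marker libraries (-0.76, adjusted p = 0.237). In OT-II cells the higher-dose libraries lay below the saline libraries without overlap, but the difference was small (-0.29, SE 0.20, adjusted p = 0.951). The Il7r response to the higher dose differed between OT-I and OT-II cells by -0.61 (2 SE either side, -1.20 to -0.01), which did not pass the test (adjusted p = 0.980).

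Il2rb moved the opposite way. In OT-I cells it stood at 1014, 1005 and 989 CPM after A8B1-OVA, at 754, 1463 and 1282 CPM after higher-dose OVA, at 472, 554 and 574 CPM after molar-equivalent OVA and at 533, 552 and 554 CPM after saline. Libraries of both A8B1-OVA and higher-dose OVA lay above all others. The A8B1-OVA libraries fell inside the wider higher-dose range, with higher-dose replicate 1 below them and replicates 2 and 3 above them. Il2rb rose 1.82-fold with A8B1-OVA against saline (log2 fold change 0.87, SE 0.19, adjusted p = 0.0109) and also rose against molar-equivalent OVA (0.90, SE 0.19, adjusted p = 0.00941). The difference between A8B1-OVA and higher-dose OVA was -0.25, with 2 SE either side from -0.63 to 0.13 (adjusted p = 0.511).

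Higher-dose OVA raised Il2rb in OT-I cells 2.17-fold against saline (log2 fold change 1.11, SE 0.19, adjusted p = 0.00996) and also against molar-equivalent OVA (1.15, SE 0.19, adjusted p = 0.0168). Il2rb and Il7r were the 2 of 8 genes called against saline, beside 2.41% of all genes, and Il2rb was the 1 of 8 called against molar-equivalent OVA, beside 1.04%. The call against saline was lost without saline replicate 1 (1.10, adjusted p = 0.0531), replicate 2 (1.12, 0.0607) or replicate 3 (1.12, 0.0533) and without higher-dose replicate 2 (0.90, 0.0609). That against molar-equivalent OVA was lost without molar-equivalent replicate 1 (1.07, 0.0741), higher-dose replicate 2 (0.94, 0.0864) or higher-dose replicate 3 (1.09, 0.0774). Higher-dose replicate 1, the library with 198 CPM of Cd4 and Zbtb7b, had the lowest Il2rb and the lowest Il7r of its group, and without it the Il2rb rise against saline was 1.35 (adjusted p = 0.000833).

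In OT-II cells Il2rb stood at 238, 269 and 179 CPM after A8B1-OVA, at 145 and 169 CPM after higher-dose OVA, at 50.9, 74.5 and 91.9 CPM after molar-equivalent OVA and at 102, 62.0 and 78.4 CPM after saline. The A8B1-OVA libraries were highest, the higher-dose libraries came next without overlap, and molar-equivalent OVA and saline overlapped at the bottom. Il2rb rose 2.87-fold with A8B1-OVA against saline (log2 fold change 1.52, SE 0.23, adjusted p = 0.00196) and rose against molar-equivalent OVA (1.67, SE 0.23, adjusted p = 0.00132). Against higher-dose OVA the difference was 0.56, with 2 SE either side from 0.06 to 1.06 (adjusted p = 0.376).

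Higher-dose OVA against saline gave 0.96 for Il2rb in OT-II cells (SE 0.24, adjusted p = 0.392 with edgeR and 0.0253 with DESeq2). With edgeR 0 of the 8 genes passed in that comparison, beside 0.0271% of all genes. DESeq2 called 1 of 8, beside 90 genes of the whole fit. With edgeR 4 of 8 had an unadjusted p under 0.05, for which no share of all genes was computed. The A8B1-OVA calls of Il2rb in both cell types held with each library left out, between 0.85 and 0.89 in OT-I cells and between 1.37 and 1.72 in OT-II cells against saline.

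NK cells carry Il2rb at a high level, and 5 of their markers were compared between A8B1-OVA and saline. In OT-I cells 1 rose and 0 fell, beside 7.07% rising and 4.43% falling among all genes. In OT-II cells 1 rose and 1 fell, beside 4.4% and 2.88%. The summed level of Ncr1, Klrb1c, Klra8, Klrk1 and Eomes was 168 to 192 CPM after A8B1-OVA, 222 to 472 CPM after higher-dose OVA, 89.9 to 175 CPM after molar-equivalent OVA and 89.5 to 101 CPM after saline in OT-I cells. In OT-II cells the sum was 97 to 150 CPM after A8B1-OVA, 20.7 to 22.5 CPM after higher-dose OVA, 10.2 to 20.2 CPM after molar-equivalent OVA and 9.73 to 20.6 CPM after saline. The marker that rose in each was Eomes, a T-box factor of NK cells and of activated and memory T cells. Eomes made up most of the OT-II sum after A8B1-OVA but not after saline, at 106, 139 and 89.0 CPM after A8B1-OVA and 5.54, 2.43 and 2.63 CPM after saline (log2 fold change 5.00, SE 0.42, adjusted p = 5.71e-05). Klrk1 fell in OT-II cells (-1.51, adjusted p = 0.0145), and in OT-I cells it rose with higher-dose OVA against saline (3.28, adjusted p = 0.00514). The receptors Ncr1, Klrb1c and Klra8, which define NK cells in this strain, summed to 17.5 CPM or less in every library. In OT-I cells they summed to 7.95 to 11.7 CPM after A8B1-OVA, 4.44 to 5.27 CPM after higher-dose OVA and 6.13 to 7.64 CPM after saline. The A8B1-OVA libraries thus lay above and the higher-dose libraries below the saline libraries. The OT-I molar-equivalent libraries, at 3.36, 17.5 and 5.51 CPM, spanned all of these ranges. In OT-II cells they summed to 5.05 to 8.86 CPM after A8B1-OVA and 3.00 to 9.13 CPM after saline, which overlapped, and Klra8 was at 0 in 1 saline library. The part of these genes in the Il2rb difference was not tested.

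**Figure D2:**
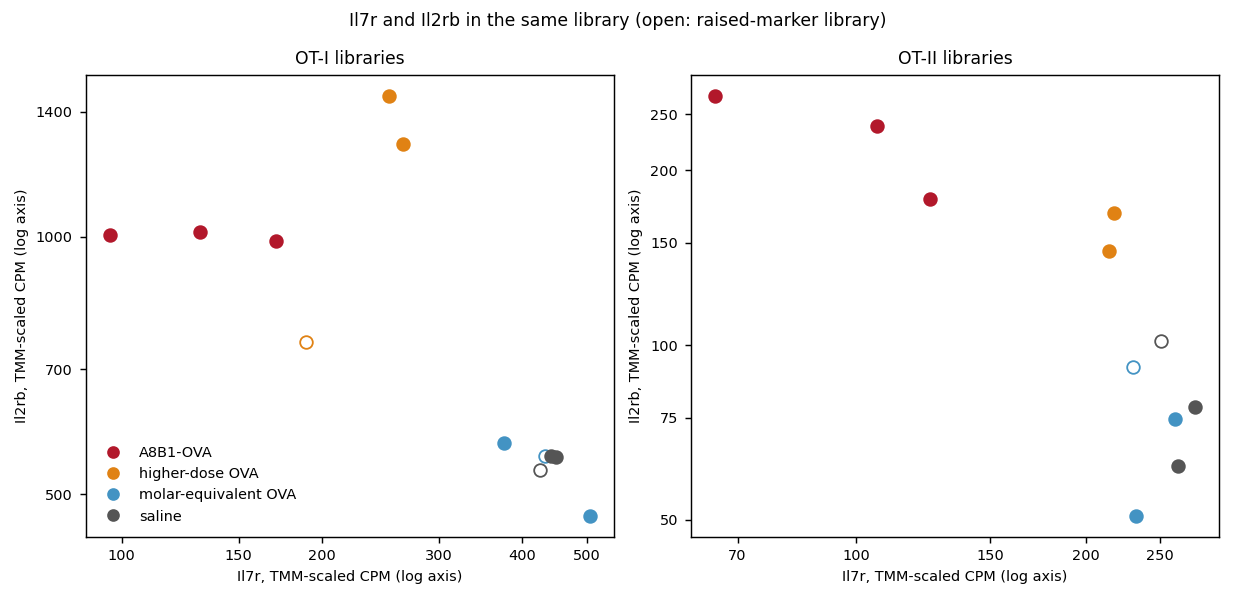
Il7r against Il2rb in every library, both in TMM-scaled CPM on log axes, with OT-I cells in the left panel and OT-II cells in the right; colours are treatments and open circles are the raised-marker libraries. A8B1-OVA libraries sit at the lowest Il7r in both panels, with Il2rb at 989 to 1014 CPM in OT-I cells and 179 to 269 CPM in OT-II cells.

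Il2rg, the shared gamma chain, showed no called change in OT-II cells and a small shift in OT-I cells. In OT-I cells it stood at 1617, 1370.2 and 1569 CPM after A8B1-OVA, at 1813, 1729 and 1912 CPM after higher-dose OVA, at 2344, 1721 and 2248 CPM after molar-equivalent OVA and at 2027, 1821 and 2116 CPM after saline. The A8B1-OVA libraries were the 3 lowest of the 12. Against molar-equivalent OVA the fall passed the test (log2 fold change -0.48, SE 0.13, adjusted p = 0.0360), one of 4 of 8 genes called there beside 10.6% of all genes. This call went when A8B1-OVA replicate 1 (-0.51, adjusted p = 0.0615) or 2 (-0.38, 0.163) or molar-equivalent replicate 1 (-0.39, 0.123) or 3 (-0.41, 0.0930) was left out. Against saline the value of -0.40 (SE 0.13) missed the threshold with edgeR (adjusted p = 0.0703) and passed with DESeq2 (0.0232). In OT-II cells Il2rg stood at 1588, 1414 and 1539.7 CPM after A8B1-OVA and 1684, 1490.2 and 1613 CPM after saline, with a log2 fold change of -0.06 and 2 SE either side from -0.25 to 0.13.

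Il2ra was the scarcest of the 8 genes. In OT-II cells it stood at 27.8, 22.1 and 36.0 CPM after A8B1-OVA, at 23.1 and 30.4 CPM after higher-dose OVA, at 18.3, 25.5 and 25.6 CPM after molar-equivalent OVA and at 19.1, 16.2 and 18.9 CPM after saline. All A8B1-OVA libraries lay above all saline libraries. The log2 fold change of 0.68 (SE 0.20) missed the threshold with edgeR (adjusted p = 0.0617) and passed with DESeq2 (0.0117). Foxp3, the factor of regulatory T cells, which carry Il2ra at a high level, ran the other way without passing the test (-0.81, adjusted p = 0.152), at 8.83 to 11.1 CPM after A8B1-OVA and 12.2 to 22.8 CPM after saline. The 5 regulatory T cell markers, which include Il2ra and Foxp3, had a median log2 fold change of 0.62 in OT-II cells, against -0.01 over all genes tested. Of these markers 1 was called higher (Ikzf2) and 0 lower, beside 4.4% and 2.88% of all genes. The 4 markers other than Il2ra summed to 173 to 212 CPM after A8B1-OVA and 114 to 166 CPM after saline, without overlap. Their part in the Il2ra value was not tested.

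In OT-I cells Il2ra stood at 4.93, 9.25 and 7.73 CPM after A8B1-OVA, at 13.5, 2.67 and 2.73 CPM after higher-dose OVA, at 3.96, 4.45 and 4.38 CPM after molar-equivalent OVA and at 4.88, 4.58 and 4.82 CPM after saline. The A8B1-OVA libraries lay just above the saline libraries, and the difference did not pass (0.61, SE 0.50, adjusted p = 0.478). The high value of 13.5 CPM came from higher-dose replicate 1, the library with raised Cd4 and Zbtb7b. The log2 fold change of Il2ra for higher-dose OVA against saline was 0.43 with that library (adjusted p = 0.851) and -0.80 without it (adjusted p = 0.220). Neither value passed, and the part of that library in the higher-dose value was not tested.

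Il4ra and Il21r, the chains for IL-4 and IL-21, were nearly level. Il4ra stood at 389, 355 and 470.1 CPM after A8B1-OVA and 437, 394 and 407 CPM after saline in OT-I cells, and at 436, 432 and 420.0 CPM after A8B1-OVA and 559, 426 and 474 CPM after saline in OT-II cells. Il21r stood at 430.0, 389 and 445 CPM after A8B1-OVA and 491, 466 and 485 CPM after saline in OT-I cells, and at 441, 454 and 451 CPM after A8B1-OVA and 586, 434 and 497 CPM after saline in OT-II cells. Only Il21r in OT-I cells separated the groups among these 4 pairs, narrowly. The log2 fold changes were -0.04 and -0.16 for Il4ra and -0.20 and -0.16 for Il21r in OT-I and OT-II cells, and Il21r had the lowest adjusted p of these in OT-I cells, at 0.301. Neither gene was called in any of the 19 comparisons.

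Il6ra, the IL-6 binding chain, fell in both cell types. In OT-I cells it stood at 76.6, 58.6 and 80.7 CPM after A8B1-OVA, at 121, 90.3 and 88.8 CPM after higher-dose OVA, at 100.5, 149 and 95.1 CPM after molar-equivalent OVA and at 129, 147 and 141 CPM after saline. The A8B1-OVA libraries lay below every other OT-I library. Il6ra fell 1.94-fold against saline (log2 fold change -0.96, SE 0.19, adjusted p = 0.00664), between -1.05 and -0.81 and always called with 1 library left out. Against molar-equivalent OVA it also fell (-0.68, SE 0.19, adjusted p = 0.0382), a call that went when A8B1-OVA replicate 1 (-0.72, adjusted p = 0.0813), A8B1-OVA replicate 2 (-0.53, 0.186) or molar-equivalent replicate 2 (-0.44, 0.115) was left out.

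In OT-II cells Il6ra stood at 93.8, 106 and 116 CPM after A8B1-OVA, at 113 and 158 CPM after higher-dose OVA, at 146, 172 and 132 CPM after molar-equivalent OVA and at 178, 165 and 193 CPM after saline. The A8B1-OVA range overlapped the higher-dose range and lay below the other treatments. The fall against saline was 1.68-fold (log2 fold change -0.75, SE 0.14, adjusted p = 0.00835) and held with each library left out (-0.83 to -0.67). Against molar-equivalent OVA the value was -0.50 (adjusted p = 0.0578 with edgeR and 0.00960 with DESeq2). Higher-dose OVA gave -0.45 in OT-I cells (adjusted p = 0.332) and -0.40 in OT-II cells (adjusted p = 0.805) against saline.

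Myeloid cells also carry Il6ra. For A8B1-OVA against saline the median log2 fold change of 11 myeloid markers was -1.49 in OT-I cells and -1.44 in OT-II cells. In OT-I cells 0 of 11 were called, beside 11.5% of all genes in either direction. In OT-II cells 3 of 11 were called lower and 0 higher, beside 2.88% and 4.4% of all genes. They summed to 102 to 169 CPM after A8B1-OVA and 123 to 485 CPM after saline in OT-I cells, and to 94.1 to 171 CPM after A8B1-OVA and 154 to 699.6 CPM after saline in OT-II cells, and none of the 11 was at 0 in these libraries. Without the raised-marker libraries Il6ra gave -1.01 in OT-I cells (adjusted p = 0.00556) and -0.75 in OT-II cells (adjusted p = 0.0260). The saline libraries that remain still held myeloid markers, at 193 and 123 CPM in OT-I cells and 154 and 180 CPM in OT-II cells. The part of myeloid cells in the Il6ra fall was not tested.

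Il6st, the gp130 chain that Il6ra needs to signal, rose in OT-II cells while Il6ra fell. It stood at 453, 329 and 428 CPM after A8B1-OVA, at 294 and 308 CPM after higher-dose OVA, at 192, 231 and 257 CPM after molar-equivalent OVA and at 183, 228 and 215 CPM after saline. The A8B1-OVA libraries were the 3 highest and the higher-dose libraries the next 2. Il6st rose 1.95-fold against saline (log2 fold change 0.97, SE 0.15, adjusted p = 0.00202) and rose against molar-equivalent OVA (0.85, SE 0.14, adjusted p = 0.00523), where 3 of 8 genes were called beside 6.36% of all genes. With 1 library left out the value against saline ran from 0.87 to 1.09 and stayed called. Against higher-dose OVA it was 0.44 (SE 0.16, adjusted p = 0.271), and for higher-dose OVA against saline 0.53 (SE 0.16, adjusted p = 0.587).

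In OT-I cells Il6st stood at 311, 402 and 504 CPM after A8B1-OVA, at 279, 319.9 and 391 CPM after higher-dose OVA, at 299, 366 and 156 CPM after molar-equivalent OVA and at 271, 319 and 337 CPM after saline. All treatments overlapped. The value against saline was 0.38, with 2 SE either side from -0.14 to 0.91 (adjusted p = 0.383).

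**Figure D3:**
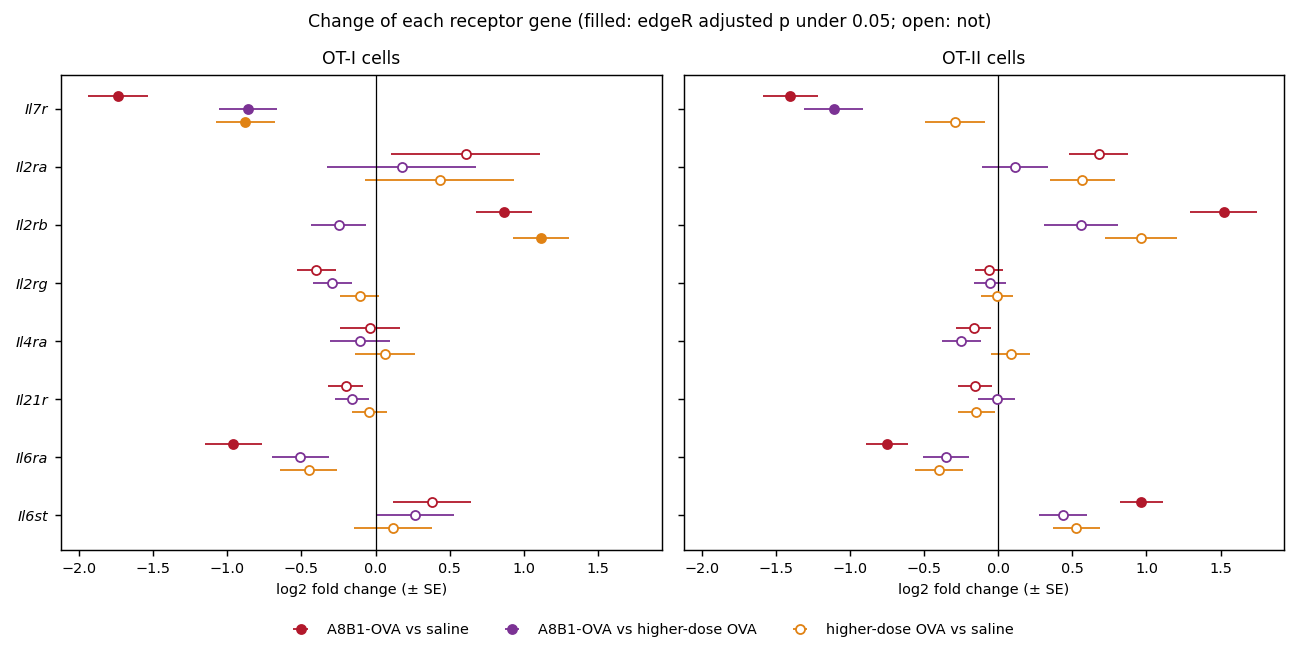
Log2 fold change of each receptor gene with its SE, OT-I cells at the left and OT-II cells at the right, for A8B1-OVA against saline (red), A8B1-OVA against higher-dose OVA (purple) and higher-dose OVA against saline (orange); filled points passed the edgeR test at an adjusted p under 0.05. Il7r is the gene filled for A8B1-OVA against higher-dose OVA in both cell types (-0.86 and -1.11), and Il6st is filled in OT-II cells (0.97).

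Molar-equivalent OVA left the 8 genes near saline. With edgeR 0 of 8 were called in OT-I cells and 0 of 8 in OT-II cells, beside 0% of all genes in each, 0 of 8 had an unadjusted p under 0.05 in either, and DESeq2 also called 0. Log2 fold changes ran from -0.28 to 0.08 in OT-I cells and from -0.25 to 0.36 in OT-II cells. Between higher-dose and molar-equivalent OVA in OT-II cells edgeR called 0 of 8, beside 0% of all genes. DESeq2 called 1 of 8, Il2rb, beside 47 genes of the whole fit. With edgeR 2 of 8 had an unadjusted p under 0.05, for which no share of all genes was computed.

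OT-I and OT-II cells differed most in the IL-2 receptor chains. Il2rb was higher in OT-I cells under all treatments, by 4.39-fold after A8B1-OVA (log2 fold change 2.13, SE 0.23, adjusted p = 1.91e-06), 7.43-fold after higher-dose OVA (2.89, SE 0.28, adjusted p = 8.1e-07), 7.36-fold after molar-equivalent OVA (2.88, SE 0.24, adjusted p = 3.98e-08) and 6.77-fold after saline (2.76, SE 0.24, adjusted p = 5.91e-08). Il2ra was lower in OT-I cells under all treatments, by 3.91-fold after A8B1-OVA (-1.97, SE 0.42, adjusted p = 0.00217), 4.23-fold after higher-dose OVA (-2.08, SE 0.45, adjusted p = 0.00417), 5.44-fold after molar-equivalent OVA (-2.44, SE 0.43, adjusted p = 0.000402) and 3.8-fold after saline (-1.92, SE 0.42, adjusted p = 0.00277). The Il2ra call after higher-dose OVA was lost in an edgeR fit of only the groups compared (adjusted p = 0.0607). Its log2 fold change there ran from -3.30 to -1.73 with 1 library left out. No OT-I library reached the lowest OT-II library for Il2ra, where the highest OT-I value was 13.5 CPM and the lowest OT-II value 16.2 CPM. The alpha and beta chains of the IL-2 receptor thus leaned in opposite directions between the CD8 and CD4 cells. Foxp3 stood at 0.632 to 4.41 CPM in OT-I libraries and 7.24 to 22.8 CPM in OT-II libraries. The 4 regulatory T cell markers other than Il2ra summed to 107 to 213 CPM and 114 to 212 CPM, which overlapped. The part of regulatory T cells in the Il2ra difference was not tested.

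Il7r was higher in OT-I cells after molar-equivalent OVA (log2 fold change 0.86, SE 0.20, adjusted p = 0.00490) and after saline (0.73, SE 0.20, adjusted p = 0.0146). The saline call was lost without OT-II saline replicate 1 (0.68, adjusted p = 0.0541), and without the raised-marker libraries the values were 0.83 (adjusted p = 0.0570) after molar-equivalent OVA and 0.73 (adjusted p = 0.106) after saline. After A8B1-OVA the difference was 0.42 (adjusted p = 0.146) and after higher-dose OVA 0.12 (adjusted p = 0.798). Il6ra was lower in OT-I cells after A8B1-OVA (-0.55, SE 0.18, adjusted p = 0.0320), a call lost without OT-I A8B1-OVA replicate 2 (-0.42, 0.166), OT-II A8B1-OVA replicate 2 (-0.54, 0.0598) or OT-II A8B1-OVA replicate 3 (-0.48, 0.107). In all, 3 of 8 genes were called after A8B1-OVA, 2 after higher-dose OVA, 3 after molar-equivalent OVA and 3 after saline, beside 20.6%, 10.1%, 16% and 15.5% of all genes. After saline the same-numbered libraries of the 2 cell types deviated together from their group means. The labels do not say that they share mice. With the replicate number as a block, Il2rg was also called higher in OT-I cells after saline (0.30, adjusted p = 0.0329, against 0.32 and 0.0728 without the block).

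Whether the 2 cell types answered A8B1-OVA differently was tested as the OT-I response minus the OT-II response. With edgeR 0 of 8 genes passed, beside 0.433% of all genes, and 0 of 8 had an unadjusted p under 0.05. The difference in response to A8B1-OVA against saline, with 2 SE either side, was -0.31 (-0.87 to 0.25) for Il7r, -0.63 (-1.25 to -0.00) for Il2rb and -0.56 (-1.21 to 0.09) for Il6st. For Il6ra it was -0.18 (-0.68 to 0.31) and for Il2rg -0.31 (-0.64 to 0.02). Il6st was called in OT-II cells and not in OT-I cells, and its response was not shown to differ between them. For A8B1-OVA against higher-dose OVA and for higher-dose OVA against saline 0 of 8 passed, beside 0.00656% of all genes in each. At an unadjusted p under 0.05 there were 1 of 8 and 0 of 8, and no share of all genes was computed for these.

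Per kilobase of the longest coding transcript, Il2rg was the most abundant and Il2ra the least abundant of the 8 genes in all 8 groups. In OT-I cells after A8B1-OVA the order was Il2rg at 909 CPM per kb, Il2rb at 239, Il21r at 169, Il4ra at 77.0, Il6st at 46.7, Il7r at 37.5, Il6ra at 8.33 and Il2ra at 1.66, and only Il6st and Il7r overlapped their neighbour in range. After saline in OT-I cells Il7r took the fourth rank at 124 CPM per kb, just under Il2rb at 130.3, with no overlap between neighbours. In OT-II cells Il7r stood at 28 CPM per kb after A8B1-OVA, below Il6st at 46.5, and at 74.6 after saline, above Il6st at 24. These ranks depend on the length used. With the median transcript in place of the longest, Il4ra took the second rank in all 8 groups, and in OT-II cells after saline Il6st (81.1 CPM per kb) lay above Il7r (74.9).

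By a likeness measure, the Pearson correlation across the 23 libraries of log2 levels after subtracting each cell type's mean, the genes closest to Il7r among 8498 were Il18r1 (r = 0.967), Slco3a1 (0.957), Atp1b3 (0.957), Rras2 (0.946) and Arhgap5 (0.946). The libraries fall into the same treatment groups for every gene, so these values describe shared treatment patterns. Closest to Il2ra were Lta (0.763) and Cd4 (0.735), and the Cd4 value came from OT-I cells (0.819) and not from OT-II cells (0.079), with OT-I higher-dose replicate 1 high in both genes.

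Beyond the 8 genes, 25 other cytokine receptor chains were measured. In OT-I cells 0 rose and 5 fell with A8B1-OVA against saline, beside 7.07% rising and 4.43% falling among all genes, and their median was -0.46. In OT-II cells 2 rose and 3 fell, beside 4.4% and 2.88%, with a median of -0.10. Il18r1, the IL-18 binding chain, fell in both cell types, at 10.7, 10.5 and 16.9 CPM after A8B1-OVA and 32.6, 33.1 and 33.3 CPM after saline in OT-I cells (log2 fold change -1.38, SE 0.19, adjusted p = 0.00059) and at 9.82, 5.6 and 12.8 CPM after A8B1-OVA and 22.1, 26.6 and 24.1 CPM after saline in OT-II cells (-1.35, SE 0.24, adjusted p = 0.00586). The groups did not overlap in either cell type.

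Both chains of the interferon gamma receptor fell too. Ifngr2 stood at 20.4, 19.4 and 19.8 CPM after A8B1-OVA and 73.9, 59.9 and 68.4 CPM after saline in OT-I cells (-1.77, SE 0.18, adjusted p = 9.23e-05), and at 76.1, 75.4 and 85.7 CPM after A8B1-OVA and 122, 113 and 129.9 CPM after saline in OT-II cells (-0.61, SE 0.12, adjusted p = 0.0115). The Ifngr2 fall was deeper in OT-I cells by 1.14 on the log2 scale (-1.14, SE 0.22, adjusted p = 0.0189). Its OT-II call was lost without saline replicate 3, within a left-out range of -0.67 to -0.55. Ifngr1 fell by 0.96 in OT-I cells (adjusted p = 0.00556) and 0.66 in OT-II cells (adjusted p = 0.00851) on the log2 scale.

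The remaining calls in OT-I cells were Il23r, an IL-23 receptor chain (-1.73, adjusted p = 0.00797), and Il27ra, the IL-27 binding chain. Il23r was scarce, at 0 to 3.05 CPM over all libraries and at 0 in 5 of the 23. The call of Il27ra (-0.49) was lost without A8B1-OVA replicate 2 and without saline replicate 1 or 3 (-0.55 to -0.41). In OT-II cells the interferon receptor chain Ifnar2 rose (0.55, adjusted p = 0.00781), and so did Il10ra (1.26), whose call was lost without A8B1-OVA replicate 1 or 2 and without saline replicate 2 or 3 (1.05 to 1.51). Il15ra, the chain that presents IL-15 to Il2rb, gave -0.46 (adjusted p = 0.198) in OT-I cells and -0.10 (adjusted p = 0.846) in OT-II cells. Between A8B1-OVA and higher-dose OVA, 4 of the 25 were called in OT-I cells, all lower, and 0 in OT-II cells, beside 2.41% and 1.34% of all genes.

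**Figure D4:**
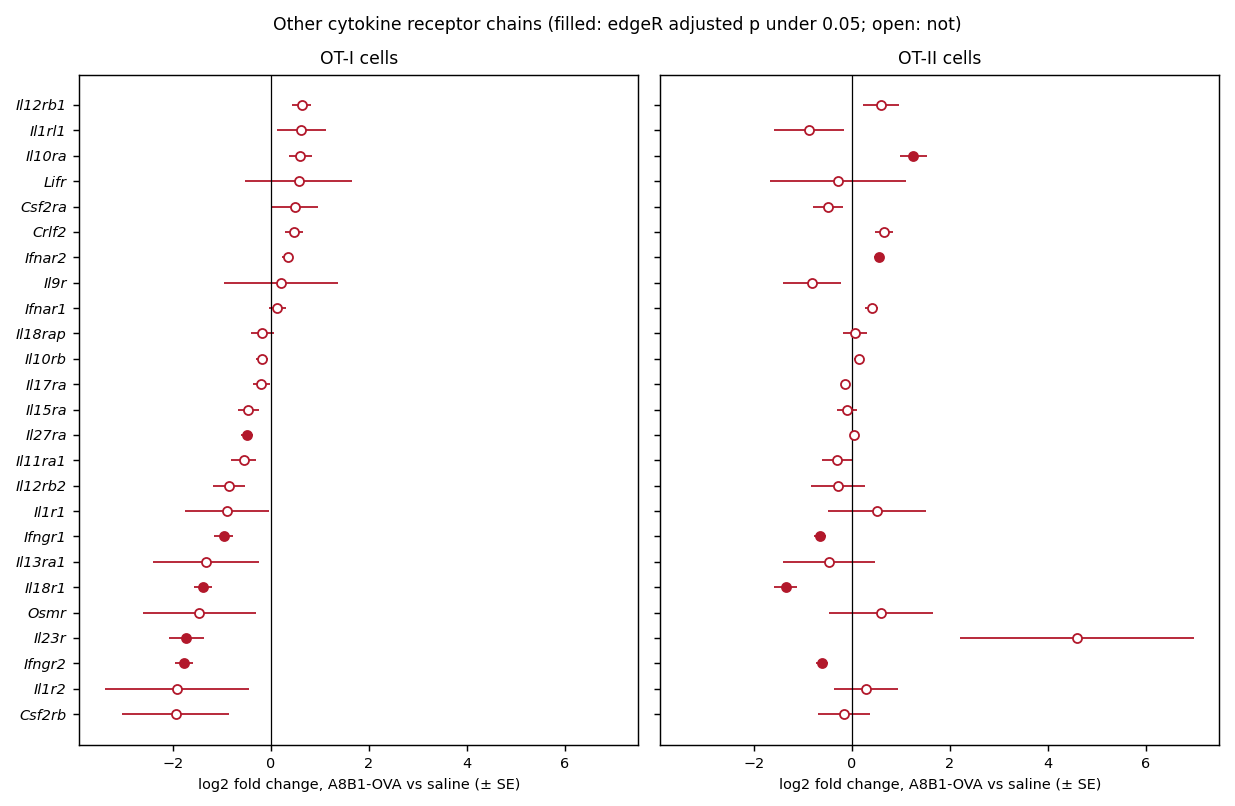
Log2 fold change with its SE of 25 other cytokine receptor chains for A8B1-OVA against saline in OT-I and OT-II cells; filled points passed the edgeR test at an adjusted p under 0.05. Il18r1, Ifngr1 and Ifngr2 are filled and below 0 in both cell types, with Ifngr2 at -1.77 in OT-I cells and -0.61 in OT-II cells.

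Among 11 JAK kinases and STAT factors, 1 rose and 0 fell in OT-I cells and 3 rose and 0 fell in OT-II cells with A8B1-OVA against saline, beside 7.07% and 4.4% of all genes rising, with medians of 0.12 and 0.16. Stat5a, which carries the signal of IL-2, IL-7 and IL-15, rose in both. It stood at 157, 159 and 148 CPM after A8B1-OVA and 90.2, 109 and 100.1 CPM after saline in OT-I cells (log2 fold change 0.62, SE 0.13, adjusted p = 0.0105), and at 189.9, 214 and 199 CPM after A8B1-OVA and 125, 99.2 and 112 CPM after saline in OT-II cells (0.86, SE 0.11, adjusted p = 0.000772). The groups did not overlap in either cell type. The OT-I call was lost without saline replicate 1, a raised-marker library (0.56), and the OT-II call held without any 1 library. Jak3, the kinase bound to the gamma chain, gave 0.18 and 0.29 in OT-I and OT-II cells, and Stat5b 0.23 and -0.04, none of which passed.

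Of 13 feedback inhibitors of JAK-STAT signalling, 0 rose and 4 fell in OT-I cells and 1 rose and 2 fell in OT-II cells, beside 4.43% and 2.88% of all genes falling, with medians of -0.21 and -0.22. Of the OT-I calls Socs3 alone held with each library left out. Socs3, which binds gp130 and blocks its signal, stood at 58.5, 34.6 and 55.9 CPM after A8B1-OVA and 145, 99.9 and 102 CPM after saline in OT-I cells (-1.23, SE 0.24, adjusted p = 0.00560), and at 98.4, 70.8 and 91.3 CPM after A8B1-OVA and 389, 177 and 191 CPM after saline in OT-II cells (-1.52, SE 0.25, adjusted p = 0.00384). The A8B1-OVA libraries were lowest in both. OT-II saline replicate 1, with raised myeloid markers, was the highest, and without the raised-marker libraries the OT-II value was -1.07. Cish, a target and inhibitor of STAT5, gave -0.28 and -0.42 without passing.

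Of 10 survival and growth genes downstream of the gamma chain, 1 rose and 2 fell in OT-I cells and 1 rose and 1 fell in OT-II cells, beside 11.5% and 7.28% of all genes called in either direction, with medians of -0.28 and -0.17. Bcl2, a survival gene kept up by IL-7, stood at 109.8, 81.6 and 139 CPM after A8B1-OVA and 259, 303 and 321 CPM after saline in OT-I cells (-1.43, SE 0.20, adjusted p = 0.000777), and gave -0.30 (adjusted p = 0.250) in OT-II cells. The response difference for Bcl2 was -1.11 (SE 0.26, adjusted p = 0.0713). Its relative Bcl2l1 (Bcl-xL) rose, at 67.8, 64.4 and 61.2 CPM after A8B1-OVA and 21.6, 32.7 and 29 CPM after saline in OT-I cells (1.21, SE 0.16, adjusted p = 0.000436) and by 0.75 in OT-II cells (SE 0.14, adjusted p = 0.00591). The A8B1-OVA and saline libraries of OT-I cells did not overlap for either gene. Pim1 fell by 1.00 on the log2 scale in OT-II cells (adjusted p = 0.00522).

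Of 9 transcription factors reported to regulate Il7r, 1 rose and 1 fell in OT-I cells and 1 rose and 2 fell in OT-II cells, beside 11.5% and 7.28% of all genes in either direction. Gfi1, a repressor of Il7r in CD8 T cells, rose in OT-I cells by 0.82 (SE 0.14, adjusted p = 0.00293), and its OT-II call (0.77, adjusted p = 0.0369) was lost with any 1 library left out. Klf2, a quiescence factor, fell by 0.75 in OT-I cells (adjusted p = 0.00244) and by 1.27 in OT-II cells (adjusted p = 3.12e-05) on the log2 scale, and Runx3 fell by 0.71 in OT-II cells (adjusted p = 0.00145). Foxo1, an activator of Il7r, gave -0.14 and -0.08 without passing. Of 9 factors reported to regulate Il2ra, 4 rose and 0 fell in OT-I cells and 5 rose and 0 fell in OT-II cells, beside 7.07% and 4.4% of all genes rising, with medians of 0.51 and 0.56, and Stat5a is one of them in both. The others that held without any 1 library were Nfatc1 (0.82 in OT-I and 0.88 in OT-II cells) and Ikzf2 (1.73 in OT-I and 2.18 in OT-II cells).

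Ligands of the gamma chain receptors were scarce in the T cells, at 2.80 CPM or less in every library. Of 6 gamma chain ligands, 2 passed the filter on low counts in OT-I cells and 4 in OT-II cells, 1 rose in OT-I cells and 0 in OT-II cells, beside 7.07% and 4.4% of all genes, and Il9 was at 0 in all 23 libraries. In OT-I cells Il2 rose but lay near the counting floor, at 0.822, 1.13 and 0.625 CPM after A8B1-OVA and 0.146, 0.0597 and 0.0189 CPM after saline, where 3 counts are 0.0408 to 0.113 CPM. Its call (adjusted p = 0.015) was lost without A8B1-OVA replicate 2 and without saline replicate 2 or 3. Of 5 IL-6 family ligands tested, 0 rose and 2 fell in OT-I cells and 0 rose and 1 fell in OT-II cells, beside 4.43% and 2.88% of all genes falling. Clcf1, which signals through gp130, fell by 0.88 in OT-I cells on the log2 scale (SE 0.15, adjusted p = 0.00268). The OT-II call of Clcf1 (-0.54, adjusted p = 0.0379) held with 2 of 6 libraries left out, and that of Osm, another gp130 ligand, in OT-I cells (-0.68, adjusted p = 0.0422) with 1 of 6. Osm and Clcf1 were not scarce, at 7.92 to 40.5 CPM and 12 to 29.3 CPM over all libraries, and Il6 was at 0 in 22 of the 23 libraries. IL-7 and IL-15 are made largely by stromal and myeloid cells rather than by T cells.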

How the data were processed

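SmartSeq cDNA from OT-I and OT-II cells was sequenced, 1 library per pool of 3 mice. The authors deposited 1 table of estimated counts per protein-coding gene for all 23 libraries. Per the submitters' processing notes, bcl2fastq and kallisto 0.46.1 were used with GRCm38. Not given in the sources used here were the annotation release, the strand setting and how transcripts were summed and rounded. All deposited values were whole and were used as they stand.

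The 8 genes, the pathway and marker lists and the tests were chosen with earlier results of these data known, and the promoter motifs with the sequences already seen. Groups and replicate numbers came from the labels. Tests used edgeR 4.0.16 in R 4.3.3: filterByExpr (min.count 10, min.total.count 15), TMM scaling, quasi-likelihood fits and Benjamini-Hochberg adjustment over all genes tested. The OT-I fit held 14080 genes, the OT-II fit 14757 and the joint fit, used between cell types, 15235. SE is the absolute log2 fold change divided by the square root of F. CPM come from the joint fit.

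Named were the 8 genes and, from each list, up to 4 called genes with the lowest adjusted p plus a fixed set of pathway genes. Other genes of the text are marker or likeness genes, and Il27ra, Il9 and Il6 were named after their values were seen. Alternatives were DESeq2 1.42.0, upper-quartile factors, no filter, only the groups compared, a joint fit, a replicate block, each library left out and, added after seeing the data, no raised-marker libraries. Same-numbered libraries of the 2 cell types deviated together from their group means in all 3 pairs after saline (r = 0.128 to 0.281). After A8B1-OVA r ran from 0.0119 to 0.248 over 3 pairs. The labels do not say that same-numbered libraries share mice. Depth was 26584040 to 73503642 counts per library. The sources used here name no molecular identifiers, so counts may not be independent molecules, and the floor of 3 counts covers counting error only. The test script was tested on simulated data. Gene positions are from GENCODE M21 and promoters from RefSeq GRCm38.p6. The marker Trac was not analysed here.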

Additional observations from a re-analysis of the deposited data

How the results depend on the processing

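Every call of the 8 genes for A8B1-OVA against saline, and those of Il7r, Il2rb and Il6st against molar-equivalent OVA, held under all alternatives run. Of 30 called values 0 changed sign, and of 122 uncalled ones 48 did. The number of the 8 genes called moved in some comparisons. In OT-I cells, higher-dose against molar-equivalent OVA (1 of 8) gave 2 with DESeq2, upper-quartile factors, no filter and the joint fit, 0 with only the groups compared, and 0 to 2 with 1 library left out. With DESeq2, OT-II higher-dose OVA gave 1 against saline and 1 against molar-equivalent OVA (0 with edgeR). With only the groups compared, OT-I A8B1-OVA gave 2 against molar-equivalent OVA and 0 against higher-dose OVA, OT-II A8B1-OVA gave 0 against higher-dose OVA, and OT-I against OT-II gave 1 after higher-dose OVA and 6 after saline. Without the raised-marker libraries, OT-I counts were 0 for A8B1-OVA against higher-dose OVA and 1 for higher-dose OVA against saline. With 1 library left out, OT-I counts ran from 2 to 4 for A8B1-OVA against molar-equivalent OVA, 0 to 1 against higher-dose OVA and 0 to 1 for higher-dose OVA against saline. OT-II counts ran from 0 to 1 for A8B1-OVA against higher-dose OVA and 4 to 5 against saline. OT-I against OT-II gave 2 to 3 after A8B1-OVA, 3 to 5 after molar-equivalent OVA and 2 to 3 after saline. The cause was not tested.

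With the replicate block, A8B1-OVA against higher-dose OVA gave 0 in each cell type, with 1 for OT-I higher-dose OVA against saline and 5 for OT-I against OT-II after molar-equivalent OVA. Outside the saline comparison of the cell types, every comparison held a same-numbered pair with an r below the saline values (lowest r = -0.31). After A8B1-OVA the pairs of the cell types gave r of 0.0119, 0.164 and 0.248.

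Uncalled values that turned round had sizes of up to 0.60 on the log2 scale. They included Il4ra in OT-I cells for A8B1-OVA against saline (-0.16 to 0.068 with 1 library left out, 0.0083 without the raised-marker libraries), Il2ra in OT-I cells for higher-dose OVA against saline (-0.80 to 0.79 and -0.78), and the differences in response to A8B1-OVA of Il2ra (-0.23 to 0.19) and Il21r (-0.11 to 0.063).

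The number of all genes called, from which the background shares come, depended on the library set. For A8B1-OVA against saline it was 1620 in OT-I cells (674 to 2569 over the alternatives) and 1074 in OT-II cells (578 to 1892). Against higher-dose OVA it was 339 (38 to 1487) and 198 (6 to 706), against molar-equivalent OVA 1496 (575 to 2457) and 939 (441 to 1713). For higher-dose OVA against saline it was 339 (73 to 712) and 4 (0 to 90). With 2 or 3 pools a group, Il2rg in OT-I cells and Il2ra in OT-II cells fell just outside the threshold against saline and passed with DESeq2.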
